A study of Homo sapiens with 20 samples.

Results

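The 8 genes described here, SAT1, OAZ1, OAZ2, ODC1, AZIN1, AMD1, SMS and SRM, set the level of polyamines in cells, and were taken by gene symbol from 28278 genes of the series. All data came from HepG2, a human liver cancer cell line. Cells were transfected with siFUBP1, which targets the splicing factor and RNA-binding protein FUBP1, or with the control siRNA siCtrl2, and RNA was taken after 48 h. In another experiment cells received an antisense oligonucleotide (ASO) against U3, a C/D box small nucleolar RNA, or a control ASO against GFP, and RNA was taken after 72 h. FUBP1 RNA immunoprecipitation (RIP) and its input were sequenced 48 h after siFBL, which targets fibrillarin (FBL), the enzyme that methylates ribose in RNA, or after the control siRNA siCtrl. Each RNA-seq group held 3 libraries and each RIP or input group 2, and the input libraries served both for splicing after siFBL and as the reference of the RIP. The paper gives poly(A) selection for the RNA-seq libraries and states none for RIP or input, so inclusion levels of the input may not compare directly with the others.

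Polyamines (putrescine, spermidine and spermine) are small positively charged molecules that bind RNA and are needed for growth. ODC1 makes putrescine from ornithine, AMD1 provides the aminopropyl donor, SRM makes spermidine and SMS makes spermine. SAT1 acetylates spermidine and spermine, which marks them for oxidation or export. OAZ1 and OAZ2 are antizymes, which bind ODC1 and send it to the proteasome, and AZIN1 is an inactive relative of ODC1 that traps antizymes. SAT1 is known for an alternative exon, here called exon X, whose inclusion brings in an early stop codon and makes the transcript a target of nonsense-mediated decay (NMD).

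SAT1 and its partners were chosen by gene symbol with results of these data in view. The inclusion change of a SAT1 exon in the U3 comparison is taken as the value they were selected on, so that the inclusion values of SAT1 exon X, and all values of the 8 genes in the U3 comparison, are given as a description: no p is given for them, and calls among them are counts beside the share over all events, from which nothing is read. 3 kinds of value are used. The inclusion level of an exon is the length-scaled share of junction reads that include it, from 0 to 1. The junction signal is the sum of both forms at an event, scaled to the length of the skipping form, in units that sum to 1e+06 over all events of a library. The RIP enrichment is the log2 ratio of RIP to input for each gene. One event per gene, that listed in most tables and then with most reads, served as its reference event.

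Junction reads per library ranged from 2693397 to 4474350 in the siFUBP1 table, from 11249641 to 13321799 in the U3 table and from 910779 to 1142189 in the input table of the siFBL experiment. FUBP1 signal at its 1 listed event was 83.8 units in siCtrl2 and 12.5 in siFUBP1, or 14.9% of the control. FBL had a mean normalized count, pooled over RIP and input, of 1034 with siCtrl and of 164 with siFBL. In the RIP table the 8 hepatocyte genes ALB, AFP, APOA1, APOB, TTR, SERPINA1, FGB and HNF4A had mean counts of at least 3316, while PTPRC, CD3E, PECAM1 and COL1A1, markers of other cells, had at most 64.8. RNA was measured in bulk, so fewer cells and less RNA per cell cannot be told apart.

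Exon X lies at chrX:23784294-23784403 (hg38, plus strand, 110 bases), in the intron between exons 3 and 4 of the canonical SAT1 transcript of 6 exons. In GENCODE release 44 it is exon 4 of a transcript that is annotated as an NMD target. Its ends are shown because they carry the splice sites and the early stop. In the lines below, read from hg38, capitals mark the AG of the upstream splice site, the in-frame stop codon and the GT of the downstream splice site.
End of the intron before, chrX:23784264-23784293: tttttttctttaatttgtcccaatcttcAG
First bases of exon X, chrX:23784294-23784323: gttacagtctcTAGcttcgccatgtacatg
Start of the intron after, chrX:23784404-23784423: GTaaggtcctattatcacac
The stop began at base 12 of exon X, after 71 codons, whereas the canonical coding sequence has 171 codons. From the stop to the last exon-exon junction of that transcript were 239 bases. In the 50 bases before exon X, 50% were T, which was above 85.6% of 31955 distinct exons of the tables, with a median of 38%. The length of 110 bases is not a multiple of 3.

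The U3 comparison asked how exon inclusion differs once this small nucleolar RNA is depleted. SAT1 exon X was the 1 member event called of 24 member events tested in 6 genes. Among all 30110 events with enough reads, 68 (0.226%) had an adjusted p under 0.1. Nothing is read from that count, since the event belongs to the contrast that was known when SAT1 was chosen. The inclusion level of exon X was 0.141, 0.135 and 0.208 in the 3 GFP ASO libraries. In the U3 ASO libraries it was 0.446, 0.385 and 0.380. All U3 ASO libraries lay above all GFP ASO libraries, and the mean was 0.162 ± 0.0406 (SD, n = 3) for GFP ASO against 0.404 ± 0.0368 (SD, n = 3) for U3 ASO, a difference of 0.242. These levels rest on a mean of 589.5 junction reads per library. The call was absent with limma on the log2 odds of inclusion, which called no event of the table.

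With signal scaled to library totals, both forms of SAT1 had more signal in U3 ASO, and the form with exon X differed more. The signal of the form with exon X was 5.55, 6.76 and 9.09 units in the GFP ASO libraries and 36.0, 33.0 and 36.6 in the U3 ASO libraries. Its mean was 4.94-fold that of GFP ASO. The form without exon X had 33.8, 43.3 and 34.6 units in GFP ASO and 44.7, 52.8 and 59.7 in U3 ASO, a mean 1.41-fold that of the control. Neither form overlapped between the groups with this scaling. The plot of both forms shows this as a wide gap for the form with exon X and a narrow one for the other. The median of all events was itself higher in U3 ASO by 0.25 on the log2 scale. The forms were not rescaled for that shift, so the narrow gap may not hold without it.

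**Figure D1:**
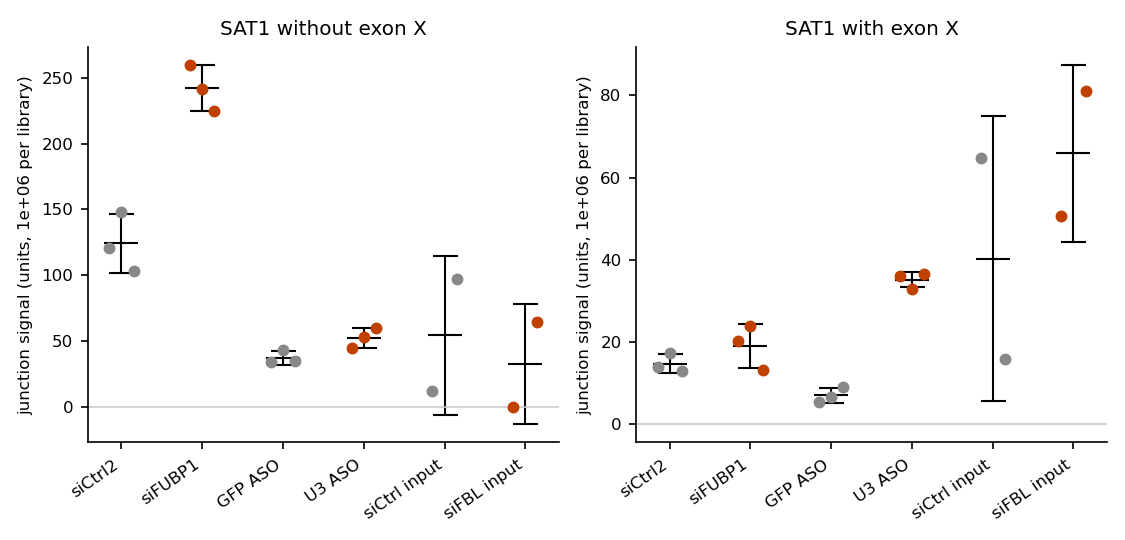
Length-scaled junction signal in units (y axis, linear, a different range in each panel) of SAT1 without exon X (left) and with exon X (right), by group (x axis). Points are libraries in list order, horizontal bars the mean and error bars the SD (n = 3, or 2 for the input groups). With exon X, the U3 ASO libraries sit between 33.0 and 36.6 and the GFP ASO libraries at 9.09 or below.

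The 2 other SAT1 events of the U3 table, at canonical exons 3 and 4, were included at nearly every read. Inclusion of exon 3 (chrX:23783800-23783883, 84 bases) was at least 0.994 in every library, and that of exon 4 (chrX:23785328-23785429, 102 bases) at least 0.998. Their lengths are multiples of 3 and both lie in the coding sequence. Signal at exon 3 was 62.9, 72.4 and 68.1 units in GFP ASO and 106.0, 113.8 and 116.0 in U3 ASO. Signal at exon 4 was 44.7, 53.7 and 45.1 in GFP ASO and 71.0, 80.1 and 85.4 in U3 ASO. SAT1 signal was thus higher in U3 ASO at all 3 events, by 0.72 to 0.98 on the log2 scale. The median of all events moved by 0.25 on that scale. With median ratio scaling, which takes out this shift, the SAT1 values were 0.47 to 0.74. The 3 events share reads and are not independent.

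AZIN1 held the other member events whose U3 ASO and GFP ASO libraries did not overlap in inclusion and differed by at least 0.05. With SAT1 these were 4 events, and 4.05% of all events met both conditions. The 3 AZIN1 events are versions of 1 alternative exon near chr8:102849987-102850165 (minus strand), which differ in their ends and share the skipping junction. In the annotation this exon lies before the coding sequence, so its inclusion leaves the coding sequence as it is. In its reference version (chr8:102849999-102850144), inclusion was 0.252, 0.214 and 0.219 in GFP ASO and 0.389, 0.353 and 0.474 in U3 ASO. The difference was 0.177 there, and 0.158 and 0.127 in the versions at chr8:102849987-102850144 and chr8:102849999-102850165. None of the 3 was called. In contrast to SAT1, the skipping form of AZIN1 was lower in U3 ASO with scaling to library totals. It had 15.4, 21.6 and 14.4 units there against 23.1, 29.3 and 25.2 in GFP ASO.

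**Figure D2:**
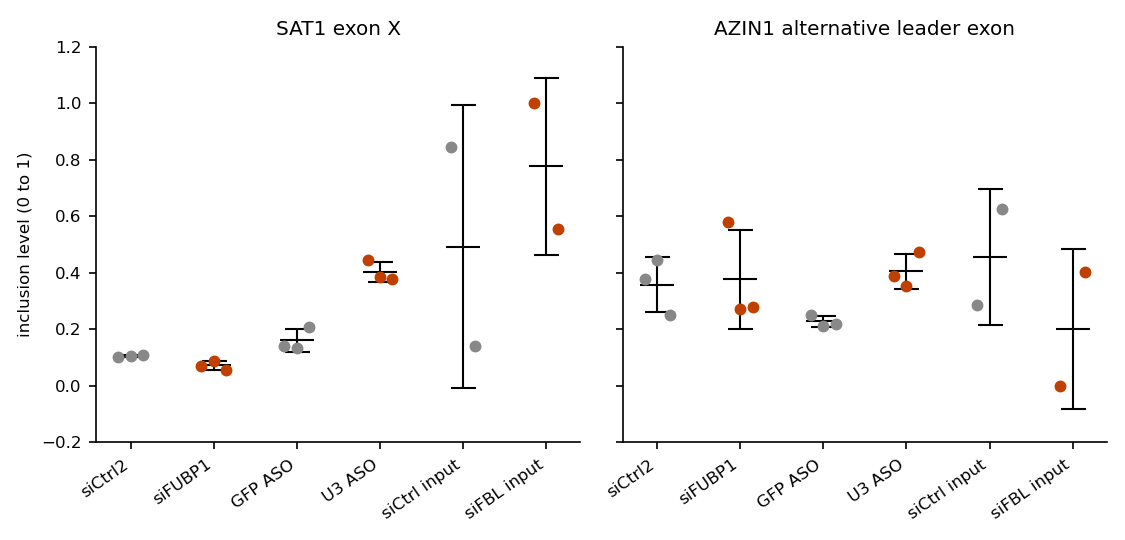
Inclusion level (y axis, 0 to 1) of SAT1 exon X (left) and the reference version of the AZIN1 alternative exon before the coding sequence (right), by group (x axis). Points are libraries in list order, horizontal bars the mean and error bars the SD (n = 3, or 2 for the input groups). U3 ASO libraries lie above GFP ASO libraries in both panels, and the 2 libraries of each input group lie far apart.

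The other member events in the U3 table were near full inclusion. Of 24 member events tested, 20 had a mean inclusion of at least 0.9 and 19 were at or above 0.9 in every library. The 20 were the exons of AMD1, ODC1, SRM and OAZ1, the coding exons of AZIN1, and SAT1 exons 3 and 4. The exception within single libraries was an AMD1 exon (chr6:110890254-110890356) with a mean of 0.949 in GFP ASO and 0.991 in U3 ASO. Over the members tested the median change in inclusion was -0.0012, and over all events -0.0036.

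Junction signal of the partner genes lay closer to the control in U3 ASO than that of SAT1 with total scaling. At reference events the log2 difference was 0.16 ± 0.14 (SE) for OAZ1, 0.074 ± 0.15 for ODC1, 0.032 ± 0.16 for AMD1, -0.10 ± 0.17 for SRM and -0.23 ± 0.17 for AZIN1. With median ratio scaling OAZ1, ODC1 and AMD1 turned to -0.0857, -0.17 and -0.21, and SRM and AZIN1 were at -0.34 and -0.46, where SAT1 was at 0.47 to 0.74. In signal, 23.3% of all events were called, and 5 of 24 member events were, the 3 of SAT1 and 2 overlapping coding events of AZIN1. The AZIN1 exon at chr8:102836256-102836390 had 23.3, 26.8 and 22.6 units in GFP ASO and 36.1, 30.9 and 36.4 in U3 ASO. With median ratio scaling neither AZIN1 event nor SAT1 exon 4 was called. Calls in signal over the whole table, 7025 events, numbered 4995 with that scaling. Without U3 ASO library 1, 2 or 3 they numbered 2950, 2946 and 2863. Without GFP ASO library 1, 2 or 3 they numbered 5535, 5370 and 5149. Their number thus fell whichever library was left out, and each such setting compares fewer libraries. OAZ1 was the member with the most reads, and its reference event had 220.0, 231.5 and 243.0 units in GFP ASO and 271.6, 238.5 and 265.2 in U3 ASO, with the groups overlapping.

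Depletion of FUBP1 asked whether inclusion depends on that factor. No member event was called among 19 tested in 7 genes, and 32 of all 16213 events tested (0.197%) were. At an unadjusted p under 0.05 there were 0 member events and 744 events in all. Exon X inclusion was 0.103, 0.105 and 0.111 in siCtrl2 and 0.072, 0.090 and 0.056 in siFUBP1. The groups did not overlap. The share of all events without overlap was not counted in this comparison, so nothing is read from that. The difference was -0.0339, opposite in sign to that in the U3 comparison. Whether the changes differ between these separate experiments was not tested. The AZIN1 alternative exon was at 0.377, 0.446 and 0.252 in siCtrl2 and 0.581, 0.272 and 0.278 in siFUBP1, and the groups overlapped.

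SAT1 junction signal was higher in siFUBP1 libraries, and only the form without exon X was apart between the groups. At the exon X event, the only SAT1 event of that table, signal was 134.9, 165.5 and 116.4 units in siCtrl2 and 279.9, 265.6 and 238.1 in siFUBP1. All siFUBP1 libraries lay above all siCtrl2 libraries (p = 0.1 in an exact permutation test, two-sided, which is as low as this design can reach). The log2 difference was 0.92 ± 0.21 (SE), which was not called over the table (limma, adjusted p = 0.203). No event of the table was called in signal, while 2193 had an unadjusted p under 0.05. The form without exon X had a mean of 124.2 ± 22.5 units in siCtrl2 and 242.1 ± 17.4 in siFUBP1 (SD, n = 3), or 1.95-fold, with no overlap. The form with exon X had 13.9, 17.4 and 12.9 units in siCtrl2 and 20.2, 23.8 and 13.2 in siFUBP1, or 1.30-fold, and the groups overlapped.

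Among the partners, AZIN1 and AMD1 also had reference signals that did not overlap between siCtrl2 and siFUBP1. AMD1 had 38.6, 36.9 and 49.9 units in siCtrl2 and 71.6, 55.1 and 61.3 in siFUBP1, a log2 difference of 0.58 ± 0.22 (SE; limma, adjusted p = 0.334). Its events at chr6:110887505-110887591 (0.30 ± 0.26) and chr6:110890254-110890356 (0.21 ± 0.26) overlapped between the groups. The event at chr6:110892161-110892203 (0.93 ± 0.29) did not, on a mean of 10.7 reads per library. At the alternative exon AZIN1 had 13.9, 29.6 and 26.4 units in siCtrl2 and 43.6, 33.1 and 47.3 in siFUBP1, a log2 difference of 0.87 ± 0.34 (SE; limma, adjusted p = 0.342). At the AZIN1 coding exon chr8:102833056-102833218 the log2 difference was 0.018. In all, 8 of 19 member events were higher without overlap and 0 lower, where 9.97% of all events were higher and 11.3% lower without overlap. Of these 8, 5 were AZIN1 events, among them the 3 that share a junction. The others differed little: 0.25 ± 0.21 for SMS, 0.12 ± 0.18 for OAZ1, -0.047 ± 0.28 for SRM and -0.11 ± 0.19 for ODC1, all log2 with SE and none called.

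**Figure D3:**
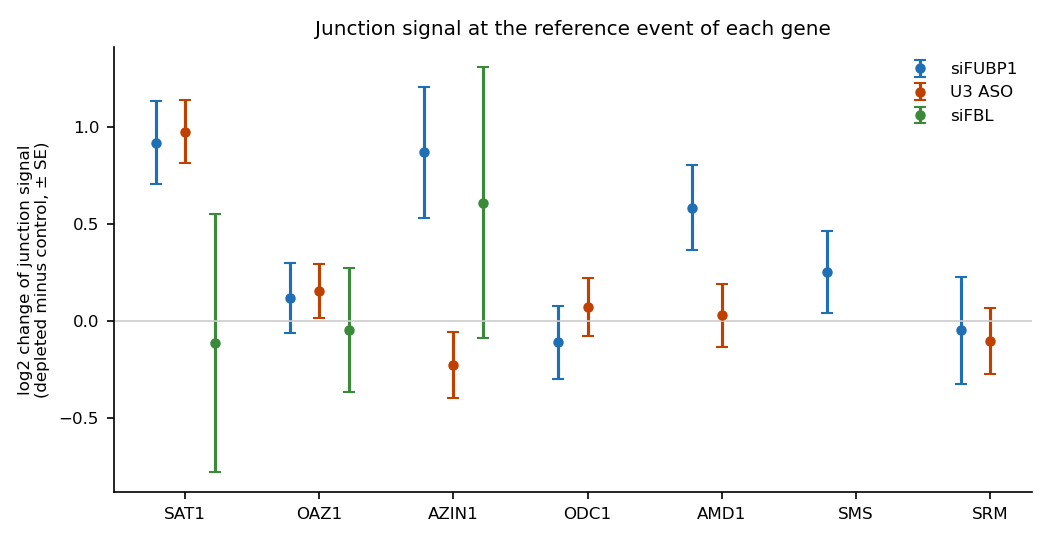
Log2 change of junction signal at the reference event of each gene (y axis, depleted minus control, total scaling), with SE as error bars, for siFUBP1 (3 against 3 libraries), U3 ASO (3 against 3) and siFBL (2 against 2). A missing point means that the gene had no event in that table. SAT1 is at 0.92 and 0.98 in siFUBP1 and U3 ASO, and at -0.11 with a wide error in siFBL.

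In the input libraries of the siFBL experiment 3 member genes had events, SAT1, AZIN1 and OAZ1, and 6 of 7 member events passed the minimum of 10 reads per library. No member event was called, and 0 of 5218 events of the table were (percent called 0). An unadjusted p under 0.05 was reached by 0 member events and 118 events in all. Exon X inclusion was 0.847 and 0.140 in siCtrl input and 1 and 0.557 in siFBL input, so the groups overlapped and replicates differed more than the groups. The reads behind these levels were 77 with and 8 without exon X, 15 and 53, 50 and 0, and 83 and 38. The mean difference of 0.285 ranged from -0.0686 to 0.64 when a library was left out, and turned negative without the second siCtrl input library. SAT1 exon 3 had 283.6 and 335.4 units of signal in siCtrl input and 494.8 and 400.7 in siFBL input (log2 difference 0.53 ± 0.35 SE; limma, adjusted p = 0.707). Among member events past the minimum it was the only one higher without overlap, as 15.0% of all events were, and 1 OAZ1 event was lower without overlap, as 27.5% of all events were. No event was called in signal. At the exon X event signal had a log2 difference of -0.11 ± 0.66 (SE). OAZ1 had 539.5 and 498.2 units in siCtrl input and 508.2 and 497.4 in siFBL input. The AZIN1 alternative exon had at most 28 reads in a library, and 2 of its 3 versions passed the minimum without being called.

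FUBP1 RIP asked which transcripts FUBP1 binds and how that changes when FBL is depleted. Of the 8 members 2 were called, SAT1, whose enrichment rose, and AMD1, whose enrichment fell. Of all 11581 genes tested, 1708 (14.7%) were called, 6.57% higher and 8.18% lower. SAT1 enrichment was 1.16 ± 0.06 (SE) in siCtrl and 1.61 ± 0.04 (SE) in siFBL on the log2 scale, a 2.24-fold and a 3.06-fold excess over input. The difference was 0.45 ± 0.07 (SE; adjusted p = 2.0e-08 over all genes tested), at the 84.6th percentile of all differences. AMD1 enrichment was 1.55 ± 0.08 in siCtrl and 1.24 ± 0.08 in siFBL, a difference of -0.31 ± 0.11 (SE; adjusted p = 0.0481). These standard errors come from 2 libraries a group and were computed by the authors' model. The p-values take them as known and use a normal distribution, so they may be too small. Which result led to the choice of these genes is not recorded. The RIP values were only assumed not to have been used for it. Over all genes the difference had an SD of 0.52.

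The other 6 members were not called. AZIN1 was the most enriched of the 8, at 3.55 in siCtrl, the 98.2nd percentile of genes tested, and 3.27 in siFBL (difference -0.28 ± 0.13 SE, adjusted p = 0.164). ODC1 went from 0.74 to 0.49 (adjusted p = 0.168) and OAZ1 from -0.32 to -0.56 (adjusted p = 0.163). OAZ2, which had no exon event in any table, was at 1.18 and 1.15, and SMS at 0.39 and 0.24. SRM stood at the low end, at -2.72 and -2.54, the 10.3rd and 8.30th percentiles, and its transcripts were thus less abundant in RIP than in input. Enrichment was lower in siFBL for 6 members and higher for 2, where 50.1% of all genes were lower. The median difference of the members was -0.20 against -0.0014 over all genes. Whether the members differ as a set was not tested.

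The mean normalized count of SAT1 was also higher in siFBL. It was 13397 with siCtrl and 22196 with siFBL, so that the ratio was 1.66 at the 98.7th percentile, where the median ratio of all genes was 0.865. Ratios of the other members ran from 0.691 for AZIN1 to 1.01 for SMS. The authors normalized each condition separately. Each condition was fitted as RIP against input, so these means pool RIP and input libraries. A higher enrichment thus raises the mean by itself, and the 2 values are not independent. The part of abundance in the difference was not tested.

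**Figure D4:**
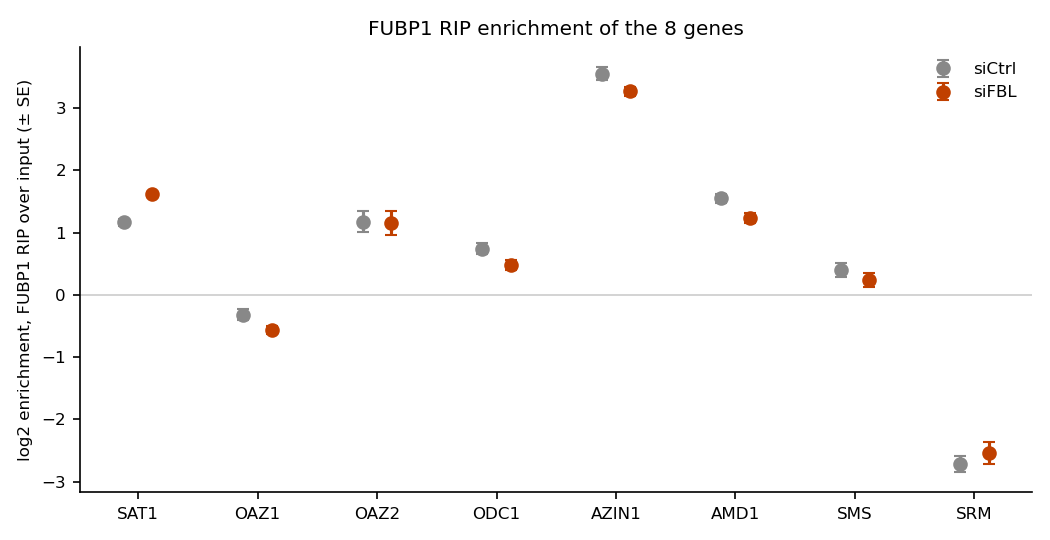
Log2 enrichment of FUBP1 RIP over input (y axis) of the 8 genes in siCtrl and siFBL cells, with the deposited SE as error bars (2 RIP and 2 input libraries per condition). AZIN1 is highest and SRM lowest, and SAT1 is 1.16 in siCtrl and 1.61 in siFBL.

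Other genes of polyamine metabolism came from a list of 31 genes for back-conversion, transport, hypusination, arginine and ornithine supply and methionine salvage. In inclusion 0 of 40, 0 of 64 and 0 of 18 of their events tested were called in siFUBP1, U3 ASO and siFBL, and 0, 3 and 0 had an unadjusted p under 0.05. In signal, 12 of 64 events were called higher and 11 lower in U3 ASO, in 8 genes, where 23.3% of all events were called in either direction. None was called in the other comparisons, as no event of those tables was. SMOX, which oxidizes spermine, had 8.36 ± 3.78 units with GFP ASO and 41.4 ± 4.42 with U3 ASO (SD, n = 3) at its exon chr20:4177351-4177577, a log2 rise of 2.32 ± 0.31 (SE; limma, adjusted p = 0.0130). SAT2, a paralog of SAT1, rose at 3 events, by 1.06 to 1.57. ARG1, the liver arginase, fell from 8.63 ± 2.61 to 0.417 ± 0.333 units (SD, n = 3; log2 -3.34 ± 0.34 SE; limma, adjusted p = 0.00780). SLC3A2, a transporter subunit linked to polyamine exchange, fell at 8 of 10 events called and rose at the other 2. In RIP, 24 of the 31 genes were tested and 5 were called, where 14.7% of all genes were. SLC3A2 (0.54 ± 0.09 SE) and ATP13A2 (0.55 ± 0.19), a lysosomal polyamine exporter, were higher in siFBL. ATP13A3 (-0.35 ± 0.08), SLC7A1 (-0.20 ± 0.06), an arginine transporter, and MAT2B (-0.64 ± 0.19) were lower.

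The exon events most like SAT1 exon X were taken from 3875 events in other genes tested in all 3 tables, by the Euclidean distance of their 3 inclusion changes from those of exon X. The nearest 5 were in WNK2, HNRNPDL, SNRPN, ARHGEF12 and BAZ2B, at distances of 0.120 to 0.136, where the median of all was 0.388. HNRNPDL (chr4:82425563-82425667, 105 bases) had inclusion of 0.013, 0.029 and 0.012 in GFP ASO and 0.149, 0.207 and 0.203 in U3 ASO, with no overlap. Its change in siFUBP1 was 0.0166, and its 4 input libraries were at 1, 0.105, 1 and 0.501. In the U3 comparison the groups also did not overlap for ARHGEF12, but they did for WNK2, SNRPN and BAZ2B. WNK2, the nearest, was at 0.284, 0.407 and 0.558 in GFP ASO and 0.477, 0.538 and 0.656 in U3 ASO. The distance rests in part on the shallow input libraries.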

How the data were processed

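Libraries were from HepG2 cells, grouped by the treatment in the labels. Per the labels and methods, the authors trimmed adapters with Cutadapt, aligned reads to hg38 with HISAT2 and counted skipped exons from junction reads with rMATS; versions and the annotation release are not given in the sources used here. The deposited junction tables list inclusion and skipping reads per library. List positions carry no replicate number, so libraries are named by position. Another 6 columns of per-sample inclusion levels were not used, nor were the authors' columns of p-values, FDR and inclusion differences. In the RIP table the authors deposited, per gene and condition, the log2 fold change (RIP against input) with its standard error, and a mean normalized count, treated as a score. Its test statistics and p-values were not used.

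Inclusion was tested in events with at least 10 mean reads per library by a quasi-binomial F test with dispersions moderated by limma 3.58.1 (squeezeVar) in R 4.3.3; the prior came from events with information (reads times both shares) of at least 5 per library. Junction signal was tested with limma on log2(signal + 0.5), with signal scaled to 1e+06 per library, without a variance trend. The added 0.5 makes the fold changes of low events too small. The RIP difference was divided by the root of the summed squared SEs and compared with a normal distribution. This was done where the mean count was 50 or more and a fitted value was given in both conditions. Genes listed at exactly 0 (6729 in siCtrl, 6582 in siFBL) were left out. P-values were two-sided, Benjamini-Hochberg adjusted over each table, and called under 0.1. Exact permutation tests can give no less than 0.1 (3 against 3) or 0.333 (2 against 2). Each script was tested on simulated data; the simulation for signal was redrawn once, since its first form shifted the library totals, and with the siFBL read totals 8.07% of unchanged events still had a signal p under 0.05, so signal p-values there are somewhat too small.

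Members and lists were chosen with earlier results of these data known. The form of the inclusion test was taken from an earlier analysis of these data, which adopted it after seeing the calls of other forms, so its calls are not independent of that choice. Rebuilt from its description, it did not give the same number of calls as that analysis, and the cause is not known. Named events were each gene's reference event and any member event with no overlap and a change of at least 0.05; likeness was the distance of inclusion changes. Exons were placed with GENCODE release 44; 99.7% of exons had AG before and GT or GC after them in hg38. Coordinates count from 1. The paper describes the libraries as biological replicates, 3 for RNA-seq and 2 for RIP. Labels give no separate cultures or batches, so p-values measure only the spread between these libraries. Reads have no stated molecular identifiers. Alternatives were the tests, read minimums, scalings, pseudocounts and left-out libraries given below.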

Additional observations from a re-analysis of the deposited data

How the results depend on the processing

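The number of calls depended most on the test. Events called in siFUBP1 were 32 in the main test, 8 with limma on the log2 odds and 2 with a variance trend, and in U3 ASO they were 68, 0 and 0, so the call of SAT1 exon X (1 member event) became 0 under both. A trend on mean reads, chosen after the calls of the planned trend had been seen, gave 6 and 0 events, and 0 member events in U3 ASO. Leaving out a library gave 20 to 30 events in siFUBP1 and 33 to 60 in U3 ASO. With the raw share of reads the exon X change was -0.0520 in siFUBP1 and 0.29 in U3 ASO. Median ratio scaling turned the signal change of OAZ1 (-0.0857), ODC1 (-0.17) and AMD1 (-0.21) in U3 ASO and of OAZ1 (0.11) and SAT1 (0.0388) in siFBL, and SAT1 in siFBL was 0.11 without length scaling. Without 1 library, signal changes crossed 0 for SRM in siFUBP1 (-0.24 to 0.13), for SRM (-0.23 to 0.0126), ODC1 (-0.00787 to 0.14) and AMD1 (-0.0711 to 0.14) in U3 ASO, and for OAZ1 (-0.10 to 0.0134) and SAT1 (-0.87 to 0.64) in siFBL. None of these was a call, and the cause was not tested. The SAT1 signal change stayed between 0.80 and 1.05 in siFUBP1 and between 0.90 and 1.07 in U3 ASO without a library. RIP calls were 1708 genes, 1707 with the median subtracted and 1597 without the count filter, with 2 members called in each. Whatever the setting, 2 input libraries per group at 910779 to 1142189 junction reads limit every statement on inclusion after FBL depletion. No paired analysis was possible because the list positions carry no replicate number.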
